A study of Rattus norvegicus with 8 samples.

Results

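The genes described here are 32 rat genes that make cholesterol, sense sterols, make fatty acids, take up, bind and store lipid, or burn fatty acids in mitochondria. Each was found on the array as the spots, control spots apart, whose gene name equalled its symbol, which gave 50 probes. Of the 32 genes 28 were measured, within 15651 genes tested in all, and the other 4 were too dim to enter. The study compared a single cell line with itself after long culture. NR8383, an alveolar macrophage line derived from a normal rat by lung lavage, was analysed at passage 200 (P200, 4 arrays) and at passage 20 (P20, 4 arrays). Cells of both passages grew as a mix of adherent and floating cells in DMEM with 15% heat-inactivated foetal bovine serum, 2 mM glutamine and antibiotics, and were seeded in flasks for 48 h before harvest, with no treatment and no genetic change named. The submitters call the 4 samples of each passage biological replicates. No source used here says whether they came from separate thaws or cultures, so p-values measure only the spread between these samples. One line at 2 passages also means that any feature of these particular stocks cannot be told apart from passage.

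Cholesterol is built from acetyl-CoA through the mevalonate pathway. When membrane sterol is low, the transcription factor SREBP-2 is released from the endoplasmic reticulum and switches on nearly every enzyme of that pathway. INSIG proteins hold SREBP in the membrane when sterol is plentiful, while the related factor SREBP-1 drives fatty acid synthesis and the liver X receptors drive sterol export. Alveolar macrophages take up and break down surfactant lipid, keep the surplus as cholesterol esters and triglycerides in lipid droplets, and can burn fatty acids after import into mitochondria through CPT1.

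All 8 arrays lay on 1 slide and were read in 1 scan. The 75th percentile of the signal was between 197 and 369 at P200 and between 271 and 328 at P20, 51.0% to 54.5% of spots were well above background, and no spot was saturated. Slide row 1 held P200 replicates 2, 3 and 4 with P20 replicate 1, and slide row 2 held P200 replicate 1 with P20 replicates 2, 3 and 4. P200 replicate 4 stood furthest from the other P200 arrays on the second principal component (-30.1, against 3.85 to 20.0). Of 11 macrophage markers on the array 9 were well above background on all 8 arrays, among them Cd68, Csf1r and Spi1. Of those 9, Cd14 (log2 change -0.91, P200 minus P20) and Siglec1 (-0.56) fell, 2 of 9 against 5.53% of all genes. Marco was well above background on 1 P200 and 0 P20 arrays. Adgre1, the classical surface antigen of mouse macrophages, was above background on no array. Among markers of other cells that handle lipid, 5 of 8 adipocyte markers (Adipoq, Lep, Plin1, Adrb3 and Pck1) and 7 of 8 hepatocyte markers, Alb and Apoa1 included, were above background on no array. Of the adipocyte markers Retn and Cidea were well above background on all 8 arrays. The summed signal of the 8 adipocyte markers was 8.87 to 9.12 at P200 and 9.06 to 9.13 at P20 on a log2 scale. Nearly all of that sum was Retn, which alone read 8.86 to 9.11 at P200.

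Values below are log2 signal relative to the 75th percentile of the same array, called log2 units, and changes are P200 minus P20 with their moderated standard error (SE) from limma, n = 4 arrays in each group. Different probes do not share a scale of brightness, so a level is set only against the same probe on other arrays. The arrays measure RNA from whole cultures, where fewer cells that carry a transcript and less of it per cell cannot be told apart.

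Among the 28 measured genes 1 rose, 2 fell and 25 did not pass an adjusted p under 0.05, taken over all 15651 genes, where 11.5% passed. Higher at P200 were 5.99% of all genes and lower 5.53%. The gene that rose was Cidec, a lipid droplet protein. Those that fell were Acadsb and Cpt1a, both listed here under fatty acid oxidation, though ACADSB acts mainly in isoleucine breakdown. All 4 arrays of one passage lay above all 4 of the other for 5 members, a pattern found in 19.6% of all genes: Cidec and Fabp5 were apart upwards, Acadsb, Cpt1a and Plin2 downwards. Called members were thus about as common as called genes on the whole array. The median change of the 28 was 0.04, and that of all genes was 0.00.

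**Figure D1:**
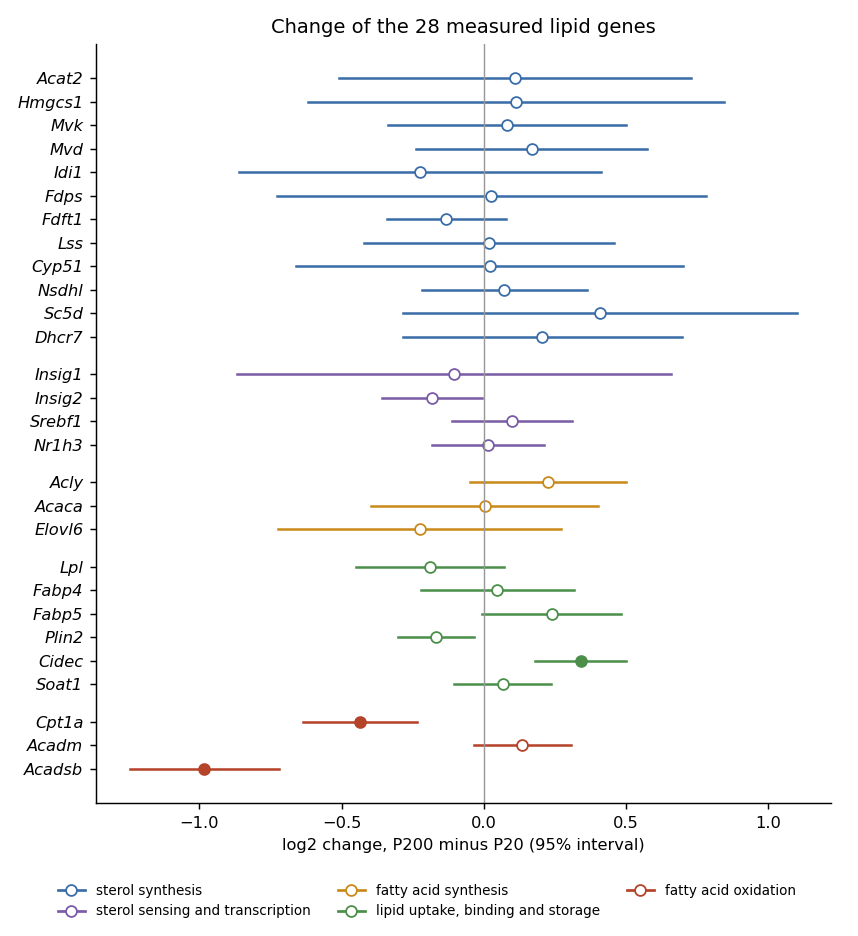
Change of each of the 28 measured genes on a log2 scale, P200 minus P20, ordered by role from top to bottom; points are fitted changes, lines are 95% intervals, and filled points passed an adjusted p under 0.05. The widest intervals belong to sterol synthesis genes and Insig1, and the only filled points are Cidec, Cpt1a and Acadsb.

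None of the 12 enzymes of sterol synthesis passed the test, and none did at an unadjusted p under 0.05 either, although 10 of 12 changes were above 0. Their changes ran between -0.22 and 0.41 with a median of 0.08. The spread inside P200 was wide. The median range over the 4 P200 arrays was 1.27 log2 units, against 0.33 over the 4 P20 arrays, and for all genes the same ranges were 0.32 at P200 and 0.24 at P20. A range of at least 1 log2 unit at P200 was seen in 7 of the 12, against 5.42% of all genes, and in 0 of the 12 at P20.

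Fdps, the farnesyl diphosphate synthase that feeds both sterol and prenyl lipids, had the widest range of the 28 measured genes. It read 5.39, 3.58, 4.26 and 4.05 in P200 replicates 1 to 4, against 4.28, 4.16, 4.51 and 4.22 in P20 replicates 1 to 4. Replicate 1 of P200 was thus the highest and replicate 2 the lowest of all 8 arrays, with every P20 array between them. The means were 4.32 ± 0.77 at P200 and 4.29 ± 0.16 at P20 (SD, n = 4 each), a change of 0.03 ± 0.33 (SE). Fdps, Hmgcs1, Cyp51 and Insig1 were picked for their spread after their values had been seen.

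Hmgcs1, the cytosolic HMG-CoA synthase near the start of the pathway, read 4.67, 3.00, 3.82 and 3.41 at P200, against 3.71, 3.49, 3.91 and 3.32 at P20. Cyp51, the lanosterol demethylase, read 5.91, 4.40, 4.96 and 4.51 at P200, against 4.95, 4.91, 5.10 and 4.73 at P20. Both had P200 replicate 1 at the top of all arrays and P200 replicate 2 at the bottom, and their changes were 0.11 ± 0.32 and 0.02 ± 0.30 (SE). The intervals of these changes were -0.62 to 0.84 for Hmgcs1 and -0.66 to 0.70 for Cyp51, wide on both sides of 0.

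The order was shared by nearly the whole pathway. In 12 of 12 enzymes P200 replicate 1 was the highest P200 array, in 11 of 12 P200 replicate 2 was the lowest, and both held in 11 of 12 (91.7%) against 5.83% of all genes. In 11 of 12 P200 replicate 1 was also the highest of all 8 arrays, as it was in 11.5% of all genes. Measured from each gene's P20 mean, the median of the 12 was 0.78, -0.28, 0.00 and -0.13 in P200 replicates 1 to 4, against -0.01, -0.11, 0.18 and -0.03 in P20 replicates 1 to 4. The order was read off these same genes before it was counted, so the contrast with all genes is a description. The genes are not independent replicates of one another, since all 12 values of an array come from the same RNA.

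The plot of single arrays shows this as a raised column for P200 replicate 1 and a lowered one for replicate 2. The median of the 6 storage genes was -0.08 in P200 replicate 1 and 0.18 in P200 replicate 2.

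**Figure D2:**
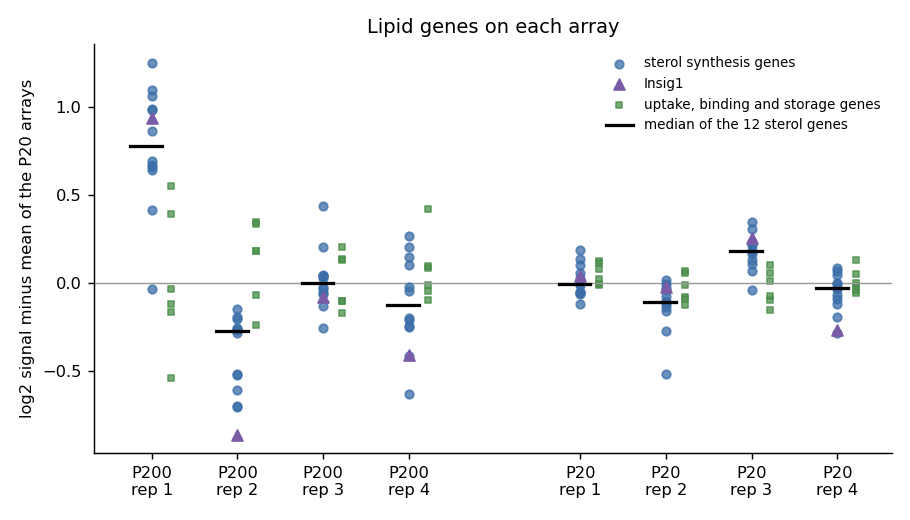
Log2 signal minus the mean of the 4 P20 arrays on each array, P200 replicates on the left and P20 replicates on the right; circles are the 12 sterol synthesis genes, triangles Insig1, small squares the 6 measured uptake, binding and storage genes, and black bars the median of the 12. That median is 0.78 in P200 replicate 1 and -0.28 in P200 replicate 2, and stays between -0.11 and 0.18 on the P20 arrays.

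The exception was Fdft1, squalene synthase, the first enzyme committed to sterols. It read 2.63, 2.52, 2.53 and 2.46 at P200, against 2.85, 2.50, 2.77 and 2.54 at P20, and so had a narrower range at P200 (0.18) than at P20 (0.35). Its change of -0.13 ± 0.09 (SE, adjusted p = 0.455) had the smallest unadjusted p of the role. Sc5d, the lathosterol desaturase near the end of the pathway, had the largest change of the role, 0.41 ± 0.30 (SE, adjusted p = 0.490). It read 1.24, -0.20, 0.43 and 0.14 at P200, against 0.13, -0.53, 0.34 and 0.04 at P20, and the groups overlapped. Its other probe gave -0.40, so the sign of this change rests on the probe. Across the 12 members with several probes that entered, 9 had the same sign in all probes and 11 agreed within 0.2 log2 units, Sc5d being the one that did not. These counts include the lanosterol synthase gene Lss, whose 2 probes carry the same sequence and so are not separate evidence.

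The rest of the pathway lay in between. Acat2, which here is the cytosolic thiolase that starts the pathway, had a change of 0.11 ± 0.27, the mevalonate kinase Mvk 0.08 ± 0.18, the mevalonate diphosphate decarboxylase Mvd 0.17 ± 0.18 and the sterol reductase Dhcr7, the last enzyme to cholesterol, 0.20 ± 0.22 (SE each). Lss had 0.02 ± 0.19 and the C4-demethylation enzyme Nsdhl 0.07 ± 0.13. Idi1, the isopentenyl diphosphate isomerase, had the lowest value of the role, -0.22 ± 0.28 (SE, adjusted p = 0.698). Without P200 replicate 1 its change was -0.53 with an adjusted p of 0.0415 in limma, which brought the called members to 4.

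P200 replicate 1 was the one P200 array in slide row 2 and had the highest 75th percentile, 369. Within slide row 2 the median change of the 12 was 0.75 with 12 of 12 above 0, and within slide row 1, which holds the other 3 P200 arrays, it was -0.14 with 2 of 12 above 0. Each of these values rests on 1 array of one passage. Without P200 replicate 1 the median of the role was -0.17, without P200 replicate 2 it was 0.24, and with slide row as a block it was 0.33. The part of slide position and of the array's brightness in this spread was not tested.

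Set against the other metabolic roles, the median change of sterol synthesis was 0.05 log2 units higher than that of the fatty acid synthesis, storage and oxidation members together. That difference was -0.19 without P200 replicate 1, 0.25 without P200 replicate 2 and 0.33 with slide row as a block, so its sign turned on a single array.

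Promoters of the 3 measured members with the widest range over the P200 arrays, Fdps, Insig1 and Hmgcs1, are shown for the short elements known from sterol-regulated promoters. Each run is the 250 bases before the transcript start in RefSeq on build GRCr8, at chr2:176804817-176805066 on the minus strand for Fdps, chr2:53382054-53382303 on the plus strand for Hmgcs1 and chr4:8057770-8058019 on the minus strand for Insig1. That transcript start is also the listed start of the gene for Fdps, but not for Hmgcs1 and Insig1. Capitals mark CCAAT, the box bound by NF-Y, and GGGCGG, the box bound by Sp1, on either strand.
Fdps promoter: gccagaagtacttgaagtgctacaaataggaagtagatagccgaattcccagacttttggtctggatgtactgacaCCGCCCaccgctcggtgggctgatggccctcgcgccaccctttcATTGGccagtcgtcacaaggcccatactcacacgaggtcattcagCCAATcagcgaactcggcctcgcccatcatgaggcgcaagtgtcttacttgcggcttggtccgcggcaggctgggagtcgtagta
Hmgcs1 promoter: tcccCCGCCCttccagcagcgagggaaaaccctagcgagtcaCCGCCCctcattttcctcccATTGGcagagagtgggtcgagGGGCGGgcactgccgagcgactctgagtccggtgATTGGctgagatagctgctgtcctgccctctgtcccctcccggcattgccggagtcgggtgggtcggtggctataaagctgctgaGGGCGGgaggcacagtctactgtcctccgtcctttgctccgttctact
Insig1 promoter: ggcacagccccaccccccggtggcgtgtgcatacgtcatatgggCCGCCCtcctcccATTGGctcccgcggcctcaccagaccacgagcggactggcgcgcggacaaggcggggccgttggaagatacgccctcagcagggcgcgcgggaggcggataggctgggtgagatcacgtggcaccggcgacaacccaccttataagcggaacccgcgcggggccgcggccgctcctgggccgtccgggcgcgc
The Fdps run holds 2 CCAAT and 1 GGGCGG, the Hmgcs1 run 2 and 4, and the Insig1 run 1 of each. A promoter was listed for 11 of the 12 sterol synthesis genes and for 25 of the 32 members. CCAAT stood in 8 of those 11 (72.7%), against 36.1% of 27457 listed genes, and GGGCGG in 9 of 11 (81.8%), against 33.5%. Over all 25 members listed, these 11 included, CCAAT stood in 15 (60.0%) and GGGCGG in 17 (68.0%). TCACNCCAC, a loose form of the sterol regulatory element, was in 0 of 11, against 1.09% of all listed genes, and so was the longer strict form, which contains it, against 0.0983%. All were searched on both strands. Forms of the sterol regulatory element that differ from these patterns, or lie outside the 250 bases, were not searched. The counts of 0 thus do not show that the element is absent. These counts describe the letters of the window and no binding was measured.

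Signals came from single 60-base probes. Those for Fdps and Cidec are shown because the files give each a genomic span longer than the probe. Whether an intron lies within these spans was not checked. The Fdps probe covers chr2:181170192-181170336 and the Cidec probe chr4:149309002-149314127, both on the minus strand of build rn4 as the scanner files give it, spans of 145 and 5126 bases for 60 bases of probe. The files also give spans longer than the probe for Fabp4 (chr2:93536175-93538589) and Insig2 (chr13:33333061-33333298), whose probes are not printed. The place of each probe in its transcript was not determined here.
Fdps probe: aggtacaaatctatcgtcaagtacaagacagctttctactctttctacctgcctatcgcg
Cidec probe: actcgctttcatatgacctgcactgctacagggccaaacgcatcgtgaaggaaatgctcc

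Of the 4 sterol sensing genes none passed the test. Insig1, itself a target of SREBP and the brake on its release, had the same order over the P200 arrays as most of the enzymes. It read 5.32, 3.52, 4.31 and 3.98 at P200, against 4.43, 4.37, 4.64 and 4.12 at P20, with P200 replicate 1 above and P200 replicates 2 and 4 below every P20 array. Its change was -0.11 ± 0.34 (SE), and its second probe gave -0.06.

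Insig2, the isoform whose expression does not depend on SREBP in the same way, had the smallest p of the role. It read -1.07, -1.26, -1.25 and -1.38 at P200, against -1.01, -1.15, -0.998 and -1.06 at P20. Only P200 replicate 1 lay within the P20 range, and the change of -0.18 ± 0.08 (SE) had an unadjusted p of 0.0440 and an adjusted p of 0.194. Srebf1, which encodes SREBP-1, had a change of 0.10 ± 0.09 and Nr1h3, which encodes the liver X receptor alpha, one of 0.02 ± 0.09 (SE each). The interval of Nr1h3 was -0.18 to 0.21.

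Fatty acid synthesis was measured in 3 of 6 genes, and none of the 3 passed. Fasn, the fatty acid synthase, and Fads1, the delta-5 desaturase, were well above background on no array. Fads2, the delta-6 desaturase, was above background on 2 P200 and 3 P20 arrays and was not tested. No level or fold is given for these dim probes.

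Acly, which makes cytosolic acetyl-CoA from citrate, read 5.76, 5.16, 5.41 and 5.33 at P200, against 5.24, 5.11, 5.26 and 5.14 at P20, a change of 0.23 ± 0.12 (SE, adjusted p = 0.313). Its P200 replicates 1, 3 and 4 lay above all P20 arrays, and replicate 2 lay among them. Elovl6, which lengthens palmitate to stearate, read -0.46, -1.43, -1.19 and -1.39 at P200, against -0.91, -0.89, -0.60 and -1.17 at P20, a change of -0.23 ± 0.22 (SE, adjusted p = 0.604). Acaca, the acetyl-CoA carboxylase that sets the pace of the pathway, had 3 probes and a change of 0.00 ± 0.18 (SE). All 3 genes had P200 replicate 1 as the highest of the 8 arrays and replicate 2 as the lowest P200 array, the order seen in sterol synthesis. The median of the 3, measured from the P20 mean, was 0.51, -0.42, -0.07 and -0.01 in P200 replicates 1 to 4, against -0.02, -0.07, 0.18 and -0.05 in P20 replicates 1 to 4.

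Of the 7 genes of lipid uptake, binding and storage 6 were measured, and Cidec rose. CIDEC, also known as FSP27 in the mouse, sits where lipid droplets touch and lets small droplets pass their lipid to larger ones. Cidec read 2.72, 2.68, 2.53 and 2.75 at P200, against 2.33, 2.39, 2.24 and 2.38 at P20. Every P200 array was above every P20 array. The means were 2.67 ± 0.10 and 2.33 ± 0.07 (SD, n = 4 each), a change of 0.34 ± 0.07 (SE) or 1.27-fold, with a limma adjusted p of 0.0148. The change was 0.33 within slide row 1 and 0.39 within slide row 2. Without P20 replicate 3 the adjusted p was 0.0504, with no filter on dim probes it was 0.148, and after scaling to the array median 1.00, so the call is close to its threshold while the sign held in 19 of 19 alternatives.

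Plin2, the perilipin that coats the droplets of macrophages and most other cells, lay lower on every P200 array without passing the test. It read 3.48, 3.41, 3.48 and 3.55 at P200, against 3.63, 3.71, 3.66 and 3.59 at P20. The change of -0.17 ± 0.06 (SE) had an adjusted p of 0.113 and an unadjusted p of 0.0195. Fabp5, the fatty acid binding protein of epidermis and macrophages, read 7.89, 7.52, 7.48 and 7.44 at P200, against 7.42, 7.22, 7.40 and 7.34 at P20. It too was apart, by 0.24 ± 0.11 (SE, adjusted p = 0.224) in one probe and 0.24 in the other. The change was 0.13 without P200 replicate 1, 0.06 within slide row 1 and 0.57 within slide row 2, which holds that replicate.

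**Figure D3:**
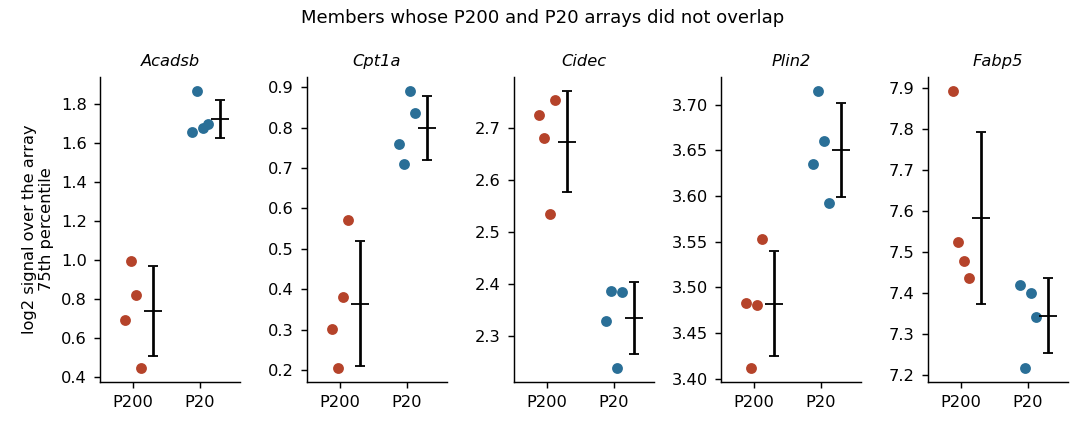
Signal of the 5 members whose arrays did not overlap between the passages, in log2 units over the 75th percentile of the array, P200 on the left and P20 on the right of each panel; points are arrays in replicate order and bars the mean ± SD of 4 arrays. The vertical scales differ between panels, and the gap is wide for Acadsb and narrow for Plin2 and Fabp5.

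The other storage genes did not pass. Lpl, the lipase that frees fatty acids from lipoproteins outside the cell, had -0.19 ± 0.11 (SE) in one probe and -0.31 in the other. It read 7.53 in P200 replicate 1, against 7.96 to 8.02 in the other P200 arrays and 7.98 to 8.17 in the P20 arrays, so the array with the highest sterol genes had the lowest Lpl. Fabp4, the fatty acid binding protein of adipocytes and macrophages, had 0.05 ± 0.12, and Soat1, which esterifies cholesterol for storage, 0.07 ± 0.07 (SE each). Fabp1, the liver form, was well above background on 1 P200 and 0 P20 arrays and was not tested.

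Fatty acid oxidation was the role with the lowest median change, -0.43 over 3 genes, and 2 of the 3 fell. The 23 other oxidation genes measured, from a wider list of the same roles, had a median of -0.00, with 1 higher and 0 lower. ACADSB, the short and branched chain acyl-CoA dehydrogenase, acts mainly in isoleucine breakdown. Acadsb read 0.69, 1.00, 0.82 and 0.45 at P200, against 1.65, 1.86, 1.68 and 1.69 at P20. Even the highest P200 array was below the lowest P20 array by more than the range of the P20 arrays. The means were 0.74 ± 0.23 and 1.72 ± 0.10 (SD, n = 4 each), a change of -0.98 ± 0.12 (SE), 1.98-fold lower, with a limma adjusted p of 0.000691. It passed in all 19 alternatives, between -1.07 and -0.86. Its probe lies at chr1:191028605-191028664 of rn4, and a second probe named Acadsb was above background on 0 P200 and 1 P20 arrays.

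Cpt1a encodes the outer membrane transferase that admits long-chain fatty acids to mitochondria and is the controlled step of their oxidation. It read 0.30, 0.20, 0.38 and 0.57 at P200, against 0.76, 0.71, 0.89 and 0.84 at P20, again with no overlap. The means were 0.36 ± 0.16 and 0.80 ± 0.08 (SD, n = 4 each), a change of -0.43 ± 0.09 (SE), 1.35-fold lower, with a limma adjusted p of 0.0135. Within slide rows 1 and 2 the change was -0.37 and -0.51. It passed in 17 of 19 alternatives, and not after scaling to the array median (adjusted p = 0.814) or with no filter on dim probes (adjusted p = 0.114). Its probe lies at chr1:205912066-205912125 of rn4. Acadm, the medium-chain dehydrogenase, went the other way without passing, 0.14 ± 0.07 (SE, adjusted p = 0.330).

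A wider list of 93 symbols from the same 5 roles, none of them among the 32, was read in the same fit. Of these 89 were on the array and 70 were measured, of which 5 rose, 2 fell and 63 did not pass, 10.0% called against 11.5% of all genes. Each gene is counted by its brightest probe. Storage genes held 5 of the 7 calls (3 higher and 2 lower of 22), oxidation 1 higher of 23, sterol sensing 1 higher of 10, sterol synthesis 0 of 9 and fatty acid synthesis 0 of 6.

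For Abca1 and Cd36, counted as not past the test, another probe did pass in the fit over all probes, and both were named after this was seen. Abca1 encodes the transporter that exports cholesterol, and Cd36 a scavenger receptor that takes up oxidised lipoprotein and fatty acids. The other Abca1 probe read -3.26, -3.81, -3.44 and -3.75 at P200, against -0.85, -0.90, -0.97 and -1.16 at P20, and was well above background on 1 P200 and 4 P20 arrays. This probe entered only through its P20 arrays, where it is high, so its passing is no support and no fold is given. The brighter Abca1 probe had -0.29 ± 0.16 (SE) with overlapping groups (limma adjusted p = 0.354). The other Cd36 probe read 1.89, 1.81, 2.00 and 1.96 at P200, against 2.64, 2.75, 2.68 and 2.83 at P20, a change of -0.81 ± 0.07 (SE, limma adjusted p = 0.000109). The brighter Cd36 probe had -0.38 ± 0.13 (adjusted p = 0.110). Both Cd36 probes had changes below 0 that differed in size. For neither gene was it tested which probe follows the transcript.

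By the brightest probe, the 2 largest changes among the 28 members and these 70 genes were in this list and both concern the droplet surface. G0s2, which encodes an inhibitor of the triglyceride lipase ATGL, read 5.57, 4.78, 4.54 and 4.63 at P200, against 2.99, 3.08, 3.12 and 3.04 at P20. It rose by 1.83 ± 0.20 (SE), 3.54-fold, with a limma adjusted p of 0.000502. A second G0s2 probe gave 1.76, but was well above background on 3 P20 arrays and entered only through P200, where it is high. Plin4, a perilipin of nascent droplets in adipocytes, read 0.25, 0.19, 0.08 and 0.51 at P200, against -1.05, -1.28, -1.54 and -1.16 at P20. It rose by 1.52 ± 0.13 (SE), 2.86-fold, with a limma adjusted p of 7.62e-05. Both passed in all 19 alternatives, and within slide rows 1 and 2 the changes were 1.66 and 2.49 for G0s2 and 1.31 and 1.58 for Plin4.

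Mgll, the monoglyceride lipase that completes the breakdown of triglyceride, fell. It read 4.90, 5.13, 5.05 and 5.11 at P200, against 5.53, 5.55, 5.47 and 5.56 at P20, a change of -0.48 ± 0.07 (SE) with a limma adjusted p of 0.00219. It passed in 18 of 19 alternatives, the array median being the exception (adjusted p = 0.621). The ATGL gene itself, Pnpla2, and its activator Abhd5 did not pass, at 0.08 and -0.04, and were named after their values were seen because G0s2 acts on ATGL.

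The other 4 calls lay close to the threshold. Srebf2, which encodes SREBP-2, read 5.26, 4.68, 4.89 and 5.30 at P200, against 4.43, 4.25, 4.55 and 4.57 at P20, and rose by 0.58 ± 0.15 (SE, adjusted p = 0.0372). Cpt2, the inner membrane partner of CPT1, read 3.97, 4.11, 4.09 and 4.48 at P200, against 3.76, 3.72, 3.66 and 3.87 at P20. It rose by 0.41 ± 0.11 (SE, limma adjusted p = 0.0455). Dgat1, which makes triglyceride, read 3.80, 4.01, 3.70 and 4.09 at P200, against 3.50, 3.43, 3.52 and 3.62 at P20. It rose by 0.38 ± 0.10 (SE, limma adjusted p = 0.0365). Gpat3, a glycerol-3-phosphate acyltransferase, fell by 0.32 (SE 0.08, adjusted p = 0.0342) in one probe and gave -0.21 (adjusted p = 0.113) in the other; it was the fifth call of its role and was named after its values were seen. Of 19 alternatives Srebf2 passed in 8, Cpt2 in 9, Dgat1 in 9 and Gpat3 in 10. Leaving out single arrays gave adjusted p-values up to 0.0975 for Srebf2, 0.124 for Cpt2, 0.0974 for Dgat1 and 0.0984 for Gpat3.

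Srebf2 and Dgat1 lie on chromosome 7 by their probes (chr7:120580150-120580209 and chr7:114552051-114552109 of rn4). So does the squalene epoxidase gene Sqle, read below (chr7:96111693-96111752). Of 936 tested genes that the files place there 28.4% were called higher at P200, against 4.55% of 14103 genes placed elsewhere, and the median change was 0.15 on chromosome 7 and -0.01 elsewhere. The part of that shift in the Srebf2 and Dgat1 calls and in the change of Sqle was not tested. The files place 28 of the 32 members on a chromosome, and none of these on chromosome 7.

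**Figure D4:**
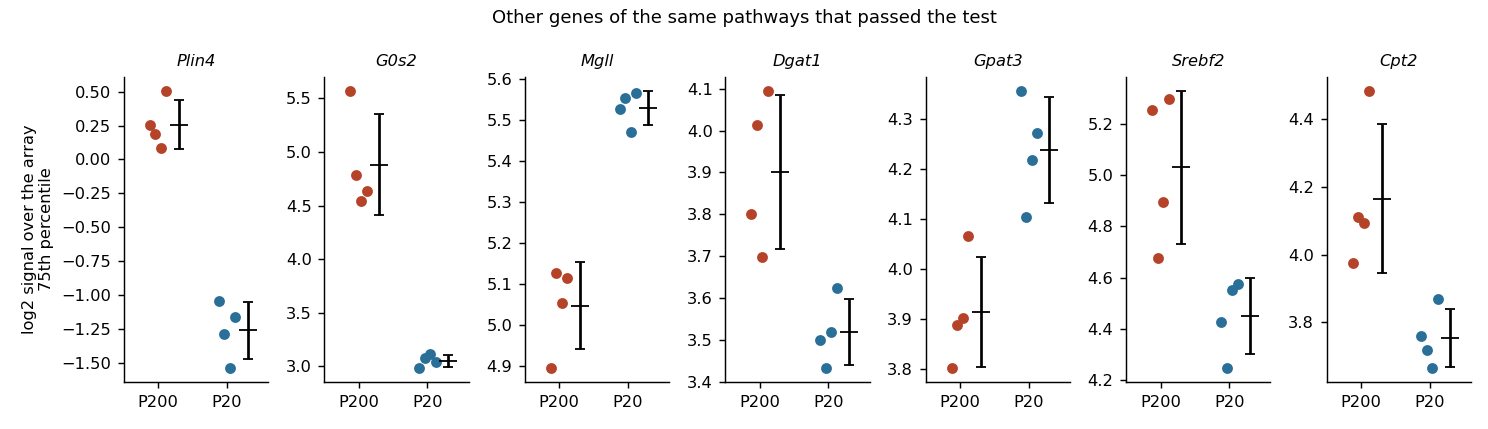
Signal of the 7 genes of the wider list that passed the test, in log2 units over the 75th percentile of the array, P200 on the left and P20 on the right of each panel; points are arrays in replicate order and bars the mean ± SD of 4 arrays. G0s2 and Plin4 are separated by more than 1 log2 unit, and the scales differ between panels.

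The wider list also held 9 more enzymes of sterol synthesis, and in 8 of the 9 P200 replicate 1 was the highest and replicate 2 the lowest P200 array. Their median range was 1.15 log2 units at P200, against 0.31 at P20. These values come from the same RNA as those of the member enzymes and are no separate check. Sqle, the squalene epoxidase, read 5.01, 3.65, 4.24 and 3.99 at P200, against 3.80, 3.61, 3.97 and 3.81 at P20. Sqle was named after its values had been seen and did not pass the test, with a change of 0.42. Srebf2 was lowest in P200 replicate 2 (4.68), as most of the enzymes were. Its highest P200 array was replicate 4 (5.30), close to replicate 1 (5.26). Whether Srebf2 follows the enzymes over the arrays was not tested.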

How the data were processed

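RNA of 4 P200 and 4 P20 samples of NR8383 cells was hybridised to 8 single-colour (Cy3) Agilent rat arrays. The deposited scanner files give linear spot intensity, and per the submitters' processing notes they were made with Agilent Feature Extraction 11.0.1.1. Per the file headers the processed intensity is background-subtracted and detrended within each array, with no scaling between arrays. The deposited series matrix holds raw spot medians of intensity. Its P200 columns 1, 2, 3 and 4 match scanner files 2, 3, 4 and 1, and replicate numbers here are those of the scanner files.

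From 62976 spots, 4259 controls and outlier spots were left out and spots of a probe averaged (45598 probes). Log2 processed signal less the array's 75th percentile over probes was used. A probe entered if well above background on all 4 arrays of a group (19458 probes), and the probe with the highest mean stood for its gene (15651 genes). Symbols came from RefSeq (GRCr8) by accession for 21109 probes and by symbol for 7108, and from the files for 17381. Promoter sequences are RefSeq's, on GRCr8. Probe positions are the files' own, on rn4, and no genome was used.

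The comparison of P200 with P20 used limma 3.58.1 (lmFit and eBayes, R 4.3.3), two-sided, Benjamini-Hochberg over all genes, adjusted p under 0.05. The code was tested on simulated data. Role summaries are medians with no test. Tables and plots were made with pandas 2.3.3 and matplotlib 3.10.9 in Python 3.11.15. Values on each array are given for members that passed, members whose groups did not overlap, and the member with the smallest p and with the largest change in each role, and, of the wider list, for genes past the test, up to 4 a role. The members and lists were chosen with earlier results of these data known. Alternatives covered scaling, background, filter, probe choice, variance model, slide row, replicate block, the series matrix values and leaving out each array. Dim signal and the number of arrays limit precision.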

Additional observations from a re-analysis of the deposited data

Results flagged for a closer look

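Among 70 groups of 4 arrays checked over 35 genes, 4 held an array far from the other 3, by most of the group's whole range (Dixon's test at its 95% limit). Chance alone marks about 1 in 20 groups in this way. In P200, Lpl read 7.53 in replicate 1, against 7.96 to 8.02 in the other 3 arrays (gap 0.879 of the range). This is the array with the highest sterol synthesis genes. In P20, Idi1 read 3.44 in replicate 3, against 3.12 to 3.15 (0.896), and Lss read 0.93 in the same replicate, against 0.75 to 0.77 (0.910), while Acadm read 4.24 in replicate 2, against 4.02 to 4.04 (0.907). P20 replicate 3 was also the P20 array with the highest median of the sterol synthesis genes, 0.18 above the P20 mean. No cause was tested for any of them.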

How the results depend on the processing

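Under 19 alternatives, 1 of them (the 75th percentile over spots) chosen after seeing the data, no call changed sign. The sterol synthesis, fatty acid synthesis and oxidation medians moved by less than the spread between arrays. For sterol synthesis that spread (SD 0.34) includes P200 replicate 1, and the median ran from -0.17 to 0.33. The fatty acid synthesis median ran from -0.16 to 0.18, so both changed sign. No member of either role was called in the main fit. Scaling to the array median called 653 genes, 1 member (0 higher, 1 lower). No filter on dim probes called 812 genes, 1 member (0 higher, 1 lower), over more probes. With slide row as a block the sterol sensing median was 0.0882 and the uptake and storage median -0.0273. Leaving out each array in turn gave 1269 to 1694 genes and 2 to 4 members, 0 to 1 higher and 2 to 3 lower, with 0 higher without P20 replicate 3. Medians then ranged from -0.17 to 0.24 for sterol synthesis, -0.11 to 0.08 for sterol sensing (0.0821 without P200 replicate 2), -0.16 to 0.14 for fatty acid synthesis, -0.01 to 0.10 for storage and -0.50 to -0.38 for oxidation, and from -0.19 to 0.25 for sterol synthesis minus the other metabolic members. Without P200 replicate 1 Idi1 was called lower, at -0.53. The cause of these moves was not tested. With replicate number as a block 1503 genes and 3 members were called, and Dgat1 and Gpat3 lost their calls (limma adjusted p = 0.0527 and 0.0742). Same-numbered arrays correlated at 0.02, 0.13, -0.00 and 0.28, and differently numbered arrays between -0.23 and 0.22. Whether the numbers pair the arrays cannot be told from these values. Genes near background, such as Fads2 and Fabp1, have no measured change at this signal.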
